A study of Mus musculus with 6 samples.

Results

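The constitutive proteasome subunits were taken as every gene whose symbol is Psma, Psmb, Psmc or Psmd followed by a number, without the induced subunits Psmb8, Psmb9 and Psmb10. This gave 36 of the 18193 genes that a probe set of the array names alone: 16 of the 20S core and 20 of the 19S regulatory particle, of which 3 encode assembly chaperones. A probe set is the group of short probes that reports 1 transcript, and the one with the highest mean over all arrays stood for its gene. RNA came from undifferentiated R1 cells, a mouse embryonic stem cell line grown with leukaemia inhibitory factor. The line had been stably transfected in both groups: 3 samples expressed a hairpin (shRNA) that targets Pcl2, and 3 expressed a mismatch control hairpin. Pcl2 is the product of Mtf2 and a partner of Polycomb repressive complex 2. The comparison shows how subunit transcripts stood in cells with lowered Mtf2. The shRNA samples came from 1 clone, so the shRNA and the clone cannot be told apart, and the labels do not say how many clones the controls came from.

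The proteasome degrades proteins that carry ubiquitin chains. Its core is a barrel of stacked rings, in which outer alpha subunits form a gate and inner beta subunits hold the catalytic sites. The regulatory particle caps the barrel: its lid and base bind and remove ubiquitin, and a ring of ATPases unfolds the substrate and threads it inside. Genes for the constitutive subunits are expressed in nearly all cells, and embryonic stem cells are known for high proteasome activity.

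Of the 36 members, 35 passed the filter on dim probe sets and lay above the background signal of 20.3, the highest value of the bacterial control probe sets, on all 6 arrays. The exception was Psmb11, the beta subunit of thymic epithelium, with signals of 12.5, 12.1 and 5.71 in control replicates 1 to 3 and 10.4, 6.67 and 13.1 in shRNA replicates 1 to 3. The label constitutive holds poorly for Psmb11, which was not above background, and for Psma8, which encodes an alpha subunit of male germ cells that takes the position of Psma7.

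The members lay on 16 chromosomes, and only Psmb5 and Psmb11 were neighbouring protein-coding genes in the GRCm38.p6 gene table. RefSeq promoter windows (GRCm38.p6, 250 bases before to 50 after each start) were found for 29 of the 36. Psma8, Psmb1, Psmb2, Psmb7, Psmc3, Psmd3 and Psmd7 had no entry. The 130 bases that precede the start are shown for the catalytic subunit genes Psmb5 and Psmb6, and for Psma2 and the deubiquitinase gene Psmd14, as a gene of the core and a gene of the lid that hold another motif. Capitals mark the antioxidant response element core TGACNNNGC, the type of site bound by the proteasome regulator Nfe2l1, in Psmb5 and Psmb6. In Psma2 and Psmd14 they mark the element of nuclear respiratory factor: GCGC, then A and any base, then GCGC (its reverse complement in Psmd14). Both were searched on both strands, and the letters run 5′ to 3′ on the gene's strand.
Psmb5, chr14:54617996-54618125, minus strand: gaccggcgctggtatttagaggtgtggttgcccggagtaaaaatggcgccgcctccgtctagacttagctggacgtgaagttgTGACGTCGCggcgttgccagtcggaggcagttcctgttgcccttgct
Psmb6, chr11:70525227-70525356, plus strand: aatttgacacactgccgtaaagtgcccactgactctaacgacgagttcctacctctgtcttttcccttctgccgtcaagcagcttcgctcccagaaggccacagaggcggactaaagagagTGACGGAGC
Psma2, chr13:14613112-14613241, plus strand: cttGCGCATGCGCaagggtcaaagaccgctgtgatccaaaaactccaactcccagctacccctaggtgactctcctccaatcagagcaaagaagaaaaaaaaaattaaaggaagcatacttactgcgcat
Psmd14, chr2:61711564-61711693, plus strand: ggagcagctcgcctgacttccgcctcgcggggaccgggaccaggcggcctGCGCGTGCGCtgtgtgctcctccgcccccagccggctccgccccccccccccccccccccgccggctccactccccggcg

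These stretches differ in composition, from 46.2% G and C in Psma2 to 82.3% in Psmd14. TGACNNNGC was found in 5 of the 31 member windows (16.1%), those of Psmb5, Psmb6, Psmc6, Psmd12 and Psmd9, and in 12.4% of all 32851 windows. The nuclear respiratory factor element was found in 6 member windows (19.4%) and in 4.6% of all windows. It was present in Psma2, Psma3 and Psma4 of the core and in Psmc4, Psmc5 and Psmd14 of the regulatory particle. The NF-Y box CCAAT was found in 38.7% of member windows and 37.4% of all, and the ETS core GGAAG in 90.3% and 71.4%. Matches of the 4 motifs were counted without regard to overlap with each other, and a match describes letters in a window, not a bound site. All windows were not matched to the member windows for G and C content, and the shares were not tested.

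Signals are the deposited intensities, and changes are differences in mean log2(signal + 7), Pcl2 shRNA minus control, with a standard error (SE), a 95% interval and limma's p adjusted over all 13095 genes tested. Means are given ± SD with n = 3 arrays per group. Mtf2, the targeted gene, was at 1952, 1513 and 1704 in the controls and 1048, 1167 and 870 in the shRNA arrays (log2 -0.74, SE 0.17, adjusted p = 0.0157). The knockdown of Mtf2 did not pass without control replicate 1 (adjusted p = 0.0519) or shRNA replicate 3 (adjusted p = 0.0574). Of 7 embryonic stem cell markers, 3 rose and 4 did not pass (with the replicate number as a block Nanog was also higher, adjusted p = 0.0107), and their summed signal was 18300 to 23150 in the controls and 27760 to 39010 in the shRNA arrays. The summed signal of 7 fibroblast markers was 366 to 928 and 245 to 566, with Lum and Dcn at background. Of these 7, 4 were tested and none passed, while with the block Col1a1 (log2 -1.83, adjusted p = 0.0039) and Col3a1 (log2 -0.83, adjusted p = 0.0305) were lower. For 5 endoderm markers it was 128 to 176 and 144 to 160, with Afp at background, and none of the 3 tested passed with or without the block. The part of these shifts in the results was not tested. In cultures, fewer cells of a type and less RNA per cell cannot be told apart.

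Nearly all proteasome subunit transcripts of the Pcl2 shRNA cells were within 2-fold of the controls. Of the 35 members tested, Psma8 rose, none fell and 34 did not pass. Over all genes tested 12.6% passed, 4.46% higher and 8.16% lower. The median log2 fold change was 0.16 for the 15 core genes tested, 0.17 for the 20 regulatory particle genes and 0.02 for all genes. Under quantile normalization these were 0.08, 0.12 and 0.03, and under median centring 0.10, 0.11 and -0.04. The 95% intervals of the 34 genes that did not pass ran from -0.55 at the lowest bound to 0.96, that of Psmd5, at the highest. Each interval, taken singly and in the main fit, excluded a 2-fold change in either direction. Over all genes, not matched to the members for signal, the interval lay within 2-fold for 71.0%.

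**Figure D1:**
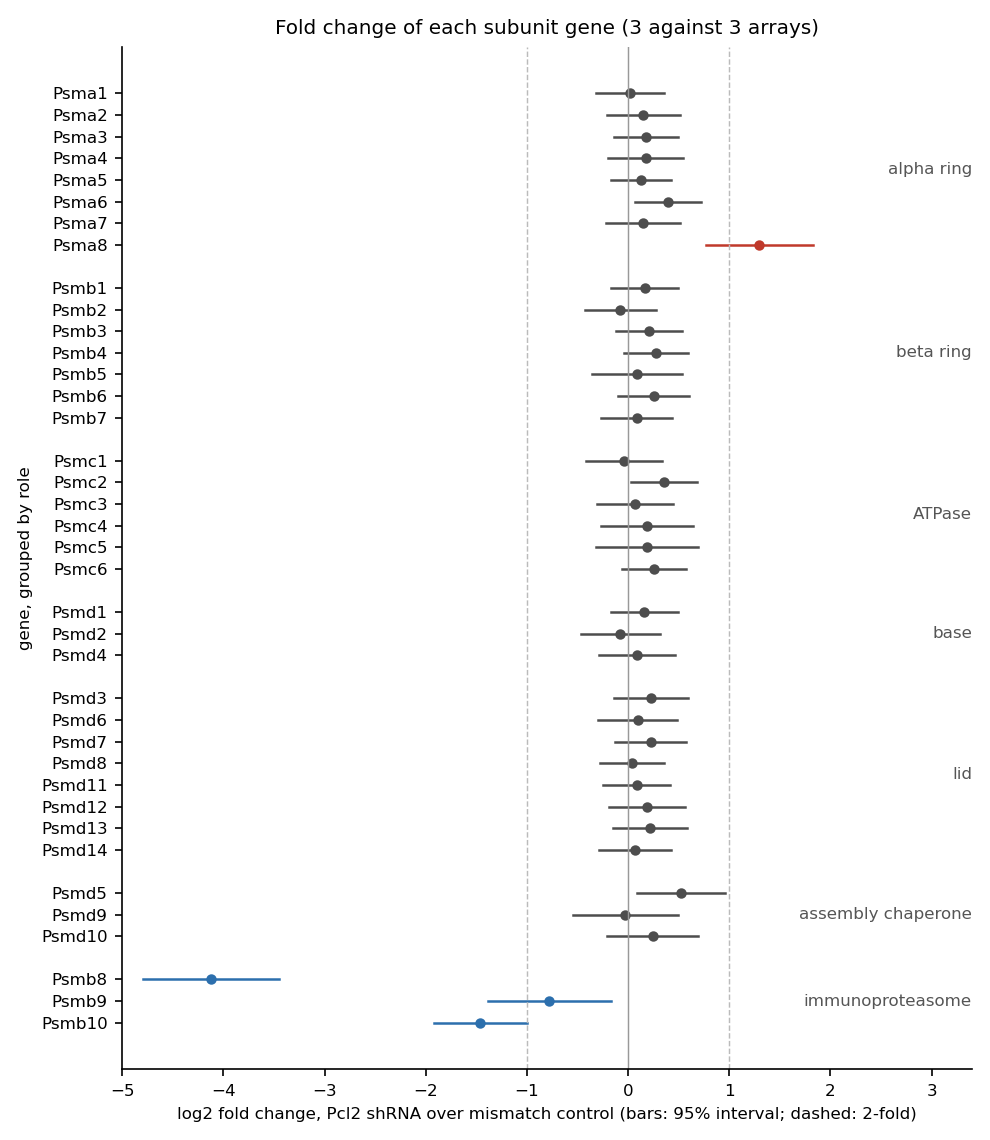
Log2 fold change of Pcl2 shRNA over mismatch control (x axis) for the 35 tested subunit genes and the 3 immunoproteasome genes (y axis), from 3 against 3 arrays. Points are limma estimates, bars are 95% intervals and dashed lines mark a 2-fold change. The intervals of all subunit genes but Psma8 lie between the dashed lines, and the immunoproteasome genes lie to the left. The point of Psmb8 rests on shRNA signals below background and moves with the pseudocount, so it is read only as at least 11.7-fold lower.

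The small offset was seen in both particles, but not for replicate number 2 (medians -0.08 for the core and -0.01 for the regulatory particle). A positive fold change was measured for 14 of 15 core genes and 17 of 20 regulatory particle genes, against 52.4% of all genes. Psmb2, Psmc1, Psmd2 and Psmd9 were on the negative side, none below -0.08. Without Psma8, the fold changes of the other 34 had an SD of 0.13, and their median SE was 0.16. The SE includes array differences that many members shared, which do not widen the spread between members. Setting SD against SE therefore cannot show that the members moved alike. For all genes the SD was 0.61 and the median SE 0.22. An absolute log2 fold change under 0.5 was measured for 33 of the 35 and for 74.2% of all genes. The genes compared were not matched for signal, and all genes together had the larger median SE.

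**Figure D2:**
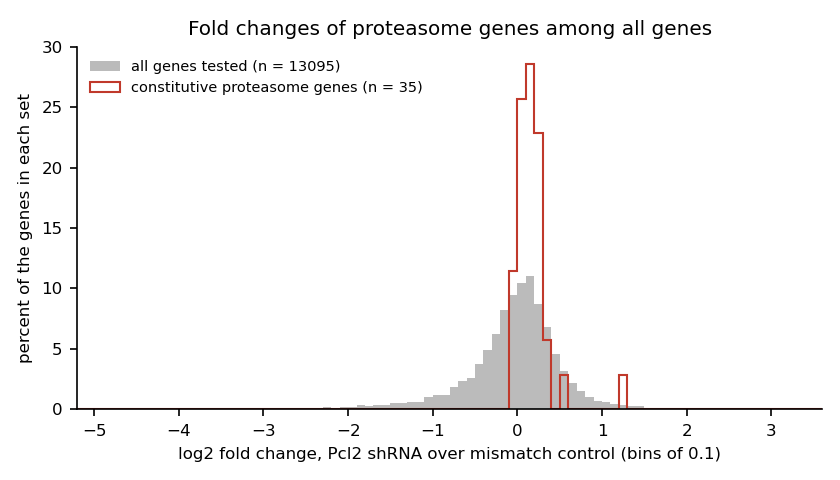
Percent of genes (y axis) by log2 fold change of Pcl2 shRNA over control in bins of 0.1 (x axis), for all 13095 genes tested (grey) and the 35 proteasome subunit genes (red outline). The subunit genes form a narrow peak just above 0, with Psmd5 at 0.52 and Psma8 at 1.30 to its right.

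The position of the members differed between the control arrays. For each gene, the deviation from its own mean over 6 arrays was taken and its median found over the genes. For the core it was -0.20, 0.05 and -0.21 in control replicates 1 to 3 and 0.12, 0.03 and 0.14 in the shRNA replicates. For the regulatory particle it was -0.05, 0.13 and -0.31, and 0.11, 0.10 and 0.04. Control replicate 3 was the lowest array for the regulatory particle, where all 20 genes were below their own means, while control replicate 2 lay within the range of the shRNA arrays for the core and above it for the regulatory particle. All genes together, not matched to the members for signal, stayed between -0.04 and 0.03 on every array.

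Within the controls, replicate 2 was the highest array for 29 of 35 members, against 28.9% of all genes, and replicate 3 the lowest for 23 of 35, against 31.0%. Here too the shares over all genes were not matched to the members for signal. The SD among the controls was larger than among the shRNA arrays for 31 of 35 members and 60.3% of all genes. The median SD was 0.23 in the controls and 0.09 in the shRNA arrays on the log2 scale (0.26 and 0.21 over all genes). These transcripts thus spread less among the shRNA arrays than among the controls, a difference that was not tested. Many members shared the same array differences, so the counts of members are not counts of independent observations.

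**Figure D3:**
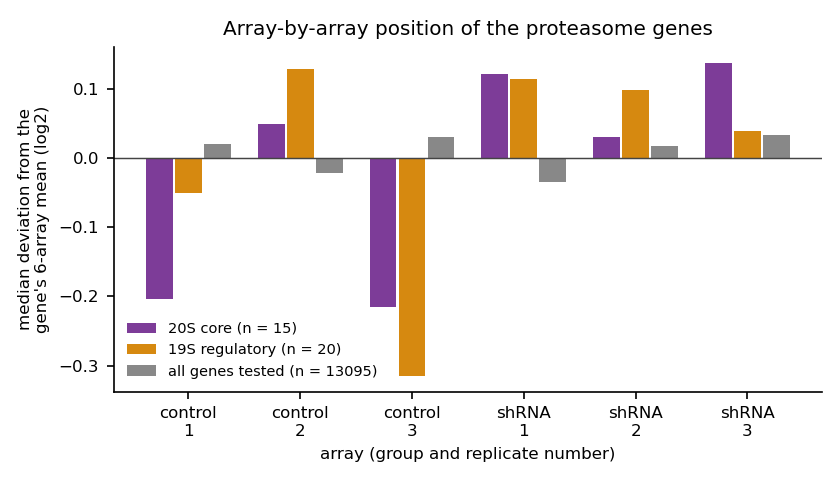
Median deviation of genes from their own 6-array mean on the log2 scale (y axis) in each array (x axis), for the 15 core genes, the 20 regulatory particle genes and all 13095 genes tested. Control replicate 3 is at -0.31 for the regulatory particle and -0.21 for the core, while all genes together stay near 0 on every array.

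Taken by replicate number, shRNA minus control had a median of 0.30, -0.08 and 0.32 over the core genes for numbers 1 to 3, with 13, 7 and 14 of 15 positive. Over the regulatory particle it was 0.16, -0.01 and 0.30, with 17, 9 and 20 of 20 positive. The offset was therefore seen for numbers 1 and 3 and not for number 2. Without control replicate 3 the medians fell to 0.10 for the core and 0.04 for the regulatory particle, and without control replicate 2 both were 0.23.

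The alpha ring carried the single call. Psma8 gave signals of 82.5, 143 and 75.6 in the controls and 245, 265 and 233 in the shRNA arrays. Every shRNA array lay above every control array, and control replicate 2 was the highest control. Psma8 rose from 100 ± 37.0 to 247.5 ± 15.9 (log2 1.30, SE 0.24, interval 0.77 to 1.83, adjusted p = 0.00589). It has 1 probe set, and it kept its call under every alternative run, with adjusted p from 0.00073 to 0.0327 and log2 values from 1.13 to 1.56.

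Psma7, whose product holds the same ring position in somatic cells, was at 1473, 1640 and 1299 in the controls and 1944, 1501 and 1463 in the shRNA arrays. The groups overlapped, and Psma7 gave log2 0.15 (SE 0.17, adjusted p = 0.64). The within-array difference, log2 Psma8 minus log2 Psma7, was -4.05, -3.46 and -3.98 in the controls and -2.96, -2.47 and -2.61 in the shRNA arrays, a shift of 1.15. This pair was chosen after its values were seen and is given without a test, and since probe sets differ in brightness the difference shows unequal change, not relative abundance.

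The other alpha subunits did not pass. Psma6 came nearest, with 2728, 3523 and 3051 in the controls and 4188, 3930 and 4084 in the shRNA arrays. The groups did not overlap, and the value was log2 0.40 (SE 0.15, adjusted p = 0.109). A second bright probe set of Psma6 gave 0.43, and without control replicate 2 the first one passed (log2 0.49, adjusted p = 0.047). Psma1, Psma2, Psma3, Psma4 and Psma5 ranged from 0.015 to 0.18.

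**Figure D4:**
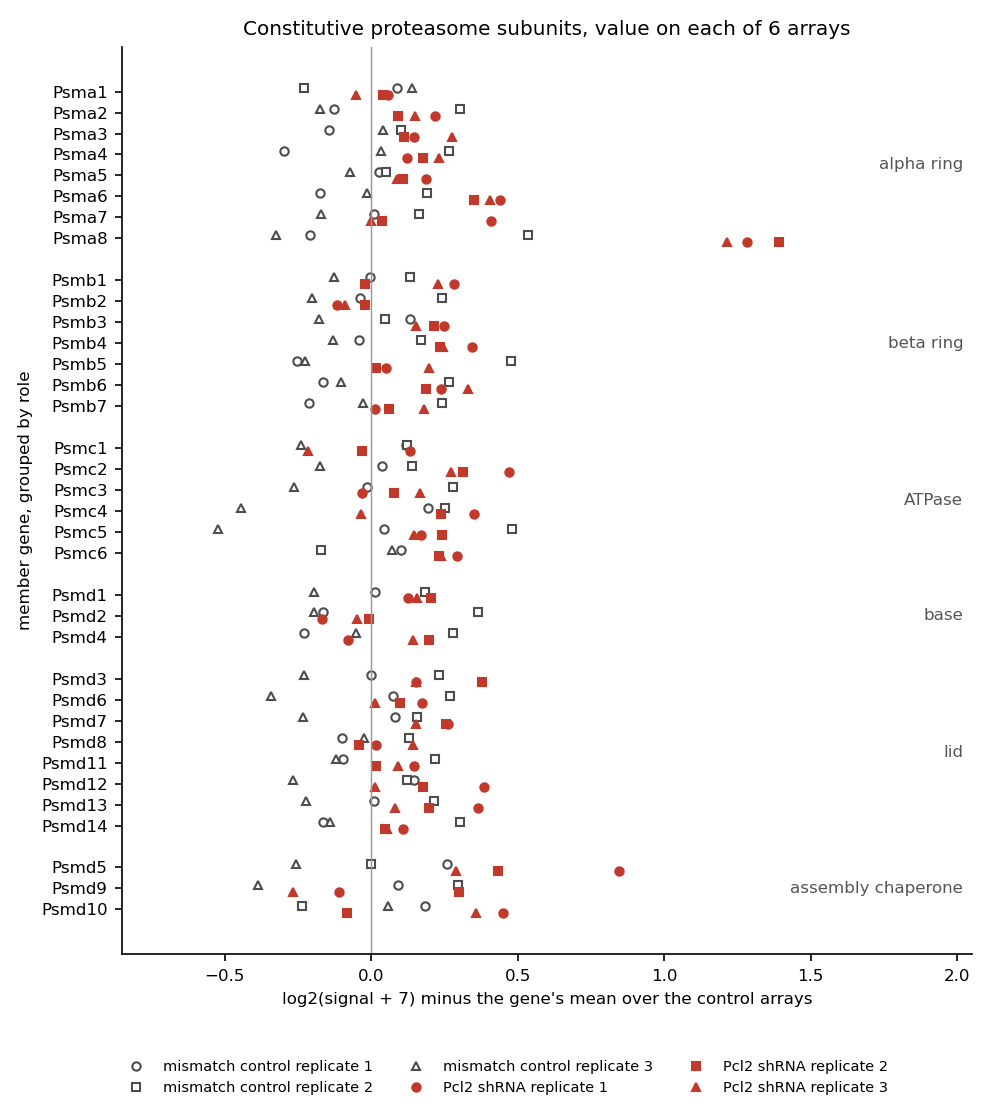
Value of each of the 35 tested subunit genes on each array, as log2(signal + 7) minus the gene's mean over the controls (x axis), with genes grouped by role (y axis), open symbols for mismatch control, filled symbols for Pcl2 shRNA, and shape for the replicate number. Open squares (control replicate 2) often lie to the right of the other controls, open triangles (control replicate 3) often to the left, and the filled symbols of Psma8 stand apart from its controls.

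In the beta ring none of the 7 tested genes passed. Psmb5, which carries the chymotrypsin-like site and is the main target of proteasome inhibitors, was at 1929, 3204 and 1965 in the controls and 2380, 2326 and 2637 in the shRNA arrays. The shRNA arrays all lay inside the control range, and the value was log2 0.09 (SE 0.20, interval -0.36 to 0.54, adjusted p = 0.834). Psmb6, with the caspase-like site, was at 1649, 2223 and 1720 and at 2180, 2106 and 2323 (log2 0.25, SE 0.16, adjusted p = 0.359). Psmb7, with the trypsin-like site, was at 4518, 6190 and 5134 and at 5277, 5459 and 5934 (log2 0.08, SE 0.16, adjusted p = 0.794). In all of these catalytic genes control replicate 2 was the highest control. Psmb2, a structural beta subunit, was the lowest member of the core, with 1124, 1365 and 1001 against 1063, 1136 and 1084 (log2 -0.08, adjusted p = 0.814). The structural subunits Psmb1, Psmb3 and Psmb4 gave 0.16, 0.20 and 0.27.

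Each catalytic subunit has an interferon-induced counterpart that replaces it in the immunoproteasome: Psmb8 for Psmb5, Psmb9 for Psmb6 and Psmb10 for Psmb7. Psmb8 fell from 232, 186 and 314 to 2.66, 7.76 and 12.4, at background in every shRNA array and at least 11.7-fold lower (adjusted p = 4.01e-05). Psmb10 fell from 369, 510 and 406 to 155, 184 and 118 (log2 -1.46, SE 0.21, adjusted p = 0.0016). Psmb9 was at 66.7, 102 and 122 and at 42.8, 45.9 and 71.4, with overlapping groups (log2 -0.78, SE 0.27, adjusted p = 0.0944), and was lower once the replicate number entered as a block (adjusted p = 0.015) and without control replicate 1 (log2 -1.01, adjusted p = 0.0485).

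Set against its constitutive partner within each array, the induced subunit was lower in the shRNA arrays at all 3 positions. The shift of the log2 difference was -4.21 for Psmb8 over Psmb5, -1.03 for Psmb9 over Psmb6 and -1.54 for Psmb10 over Psmb7. The groups did not overlap in any pair, and the exact two-sided permutation p was 0.1, the smallest that 3 against 3 arrays allow, and 0.1 adjusted over the 3 pairs. The Psmb8 value rests on signals below background and is no measure of its full size.

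**Figure D5:**
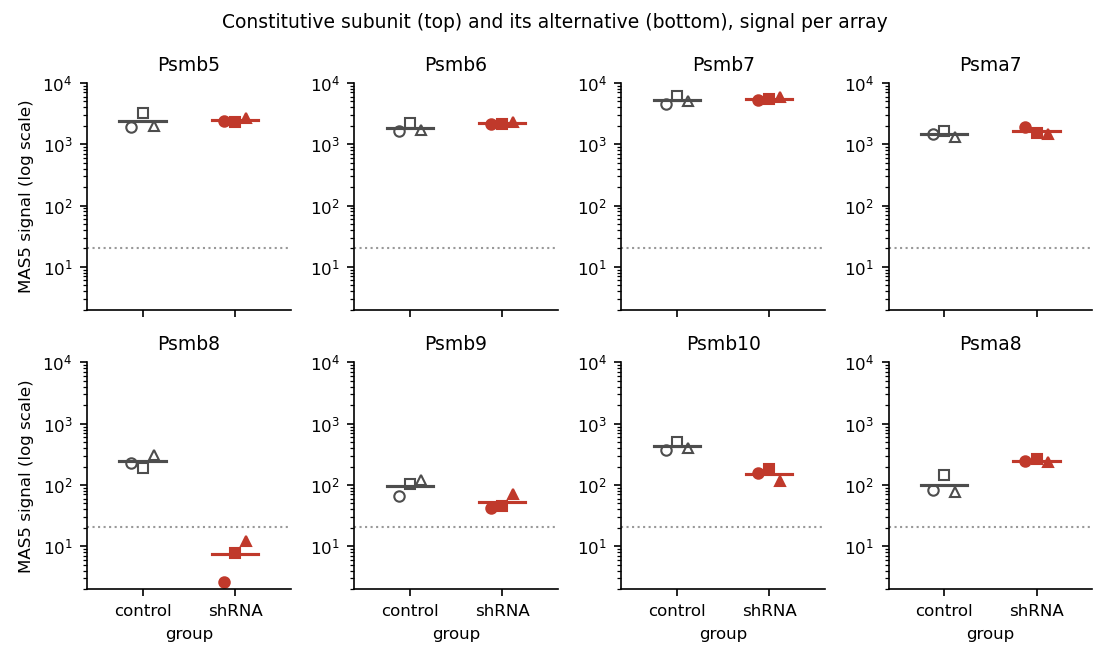
MAS5 signal on a log scale (y axis) in the 3 control and 3 Pcl2 shRNA arrays (x axis) for 4 constitutive subunit genes (top) and the gene whose product can take the same position (bottom). Symbols are arrays (circle, square and triangle for replicates 1, 2 and 3), bars are means and the dotted line is the background of 20.3. Psmb8, Psmb9 and Psmb10 have lower means and Psma8 a higher mean in the shRNA arrays, while the genes in the top row overlap.

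In the regulatory particle none of the 20 genes passed, and 1 was higher with the replicate number as a block, where 23.8% of all genes passed, 9.97% higher and 13.8% lower. Among the 6 ATPases the largest value was that of Psmc2, at 3178, 3412 and 2742 in the controls and 4293, 3851 and 3740 in the shRNA arrays. Its groups did not overlap, but the value did not pass (log2 0.35, SE 0.15, adjusted p = 0.159). Another Psmc2 probe set with a mean signal of 1935 gave 0.18, with overlapping groups. It stood for the gene when probe sets ending in _x_at, such as the main one, or in _s_at, _a_at or _f_at were left out (adjusted p = 0.591). Psmc1 was the lowest ATPase, at 797, 799 and 619 against 805, 718 and 631 (log2 -0.04, adjusted p = 0.918). Psmc3, Psmc4, Psmc5 and Psmc6 lay between, from 0.07 to 0.25.

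Psmc5 showed the control spread most clearly. Its controls were at 1110, 1504 and 748 and its shRNA arrays at 1213, 1274 and 1193 (log2 0.19, SE 0.23, adjusted p = 0.669). Without control replicate 3 it gave -0.07 and without control replicate 2 0.42, so its sign rested on which control was kept.

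The base subunits Psmd1 and Psmd2 are scaffolds, and Psmd4 is a ubiquitin receptor. Psmd1 was at 1551, 1745 and 1343 in the controls and 1676, 1771 and 1713 in the shRNA arrays (log2 0.16, adjusted p = 0.558). Psmd2 was at 1163, 1681 and 1138 and at 1162, 1298 and 1261 (log2 -0.08, adjusted p = 0.839). Psmd4 gave 0.09. The groups of all 3 overlapped.

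The 8 lid genes had fold changes from 0.04 to 0.23, an SD of 0.08 between them, and no interval that excluded 0. Psmd14, the deubiquitinase that cuts ubiquitin chains from the substrate, was at 2117, 2932 and 2153 in the controls and 2559, 2454 and 2462 in the shRNA arrays (log2 0.07, SE 0.16, interval -0.29 to 0.43, adjusted p = 0.836). Its shRNA arrays lay within the control range. Psmd3 had the largest value of the lid, at 1062, 1249 and 907 against 1184, 1384 and 1182 (log2 0.23, SE 0.16, adjusted p = 0.434). Psmd8 had the smallest (log2 0.04), and Psmd6, Psmd7, Psmd11, Psmd12 and Psmd13 lay between.

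The assembly chaperones act on the ATPase ring before the particle is complete and are not part of the finished proteasome. Psmd5 was at 692, 578 and 483 in the controls and 1044, 782 and 709 in the shRNA arrays, where each shRNA array lay above each control array. It did not pass (log2 0.52, SE 0.20, adjusted p = 0.115). With the block it was higher (adjusted p = 0.0107). Under the other alternatives its value ranged from 0.36 to 0.65 without passing. Psmd10 was at 223, 165 and 203 and at 269, 184 and 252 (log2 0.24, adjusted p = 0.514). Psmd9 was at 161, 186 and 113 and at 139, 187 and 124 (log2 -0.03, adjusted p = 0.96), and the groups of both overlapped.

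The shRNA arrays lay wholly above the controls in 9 of the 35 members and wholly below in none. Over all genes the groups did not overlap in 31.2%, 14.5% higher and 16.7% lower. The 9 were Psma3, Psma5, Psma6, Psma8, Psmb3 and Psmb4 of the core, the ATPase genes Psmc2 and Psmc6, and Psmd5. At an unadjusted p below 0.05 there were 4 members, Psma6, Psma8, Psmc2 and Psmd5, against 26.1% of all genes.

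The array holds 74 probe sets for the 36 members, of which 63 passed the filter, and 17 members had more than 1 that passed. The 15 further probe sets with a mean signal of 100 or more gave values from -0.02 to 0.43, within the range of the main ones. The 13 dimmer ones that passed ranged from -0.30 to 0.76. The signs of a gene's probe sets differed for Psmd9, Psmd11 and Psmd13. Psmd13, whose main probe set read 753, 867 and 639 in the controls and 965, 859 and 790 in the shRNA arrays (log2 0.21, adjusted p = 0.47), had the widest range. A second bright probe set of Psmd13 gave 0.14, and its dim ones, with mean signals of 72.0 and 38.9, gave -0.26 and 0.76.

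Other genes of the pathway were read from a list of 41 that act with the proteasome, of which 31 were tested: 5 fell, none rose and 26 did not pass, with a median of -0.08. Over all genes 8.16% were lower and 4.46% higher. With the replicate block 7 of the 31 were lower and 3 higher, where 13.8% of all genes were lower and 9.97% higher. Besides Psmb8 and Psmb10 the genes that fell were Psme1, Ecpas and Ubqln2. Psme1, a subunit of the PA28 cap that opens the core gate and is induced by interferon gamma, was at 992, 898 and 1048 in the controls and 518, 488 and 446 in the shRNA arrays (log2 -1.01, SE 0.15, adjusted p = 0.00186).

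Ecpas, the Ecm29 adaptor that binds core and regulatory particle together, fell from 136, 168 and 234 to 56.9, 46.4 and 69.5 (log2 -1.51, SE 0.24, adjusted p = 0.00303). The 3 further Ecpas probe sets read -1.54, -1.39 and -1.12, and the groups overlapped in none of the 4. Ubqln2, a shuttle that carries ubiquitinated proteins to the proteasome, fell from 1665, 1521 and 1452 to 1154, 1133 and 944 (log2 -0.52, SE 0.15, adjusted p = 0.0457). Its call was lost in each fit without 1 array (adjusted p from 0.0614 to 0.146), under median centring (0.0512), without a signal filter (0.0595), without the eBayes trend (0.0928) and with the mean of probe sets (0.148).

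Genes that build the proteasome or control its transcription did not pass. Pomp, the maturation factor of the core, was at 1529, 1846 and 1609 and at 1749, 1801 and 1732 (log2 0.09, SE 0.14, adjusted p = 0.757). Nfe2l1, the transcription factor that raises subunit genes when the proteasome is inhibited, was at 504, 797 and 627 and at 366, 631 and 752 (log2 -0.18, SE 0.27, adjusted p = 0.739), with overlapping groups. Nfe2l2, a related factor of the antioxidant response (log2 0.45, adjusted p = 0.113), and Ngly1, the enzyme that removes glycans from Nfe2l1 (log2 0.61, adjusted p = 0.0882), did not pass. With the replicate block both were higher (adjusted p = 0.0221 and 0.0448), as was the core chaperone gene Psmg4 (log2 0.58, adjusted p = 0.0401, and 0.115 without the block), and Nploc4, a cofactor of the Vcp unfoldase, was lower (log2 -0.49, adjusted p = 0.0167, and 0.0744 without it). Psmg4 also passed without control replicate 2 (log2 0.82, adjusted p = 0.023). These 4 were named after their values were seen.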

How the data were processed

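Each deposited intensity is the linear MAS5 signal of a probe set, which the authors obtained with GCOS 1.4 from Mouse Genome 430 2.0 arrays, per the labels. Its trimmed mean (2% removed at either end) was 150.001 in every file, and no further scaling was applied. No genome build is given in the sources used here. Of 45101 probe sets, 34945 named 1 gene (symbols updated through the GRCm38.p6 gene table), and 23186 of these reached the 40th percentile of the mean log2(signal + 7), a signal of about 20.2. The one with the highest mean stood for each of 13095 genes, and the mean linear signal chose the same one for every member. limma 3.58.1 in R 4.3.3 (lmFit, eBayes with an intensity trend) gave two-sided p-values for Pcl2 shRNA against mismatch control, and a gene passed at a Benjamini-Hochberg adjusted p below 0.05. The procedure was tested on simulated data with noise drawn independently for each gene and array, without the shared array differences seen here. The labels call the samples biological replicates, and the number of arrays limits the precision. Bound folds set an array at background to 20.3, a level taken from 27 bacterial control probe sets.

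Members and lists were chosen with earlier results of these data known. Values are given for members past the threshold with or without the block, the catalytic genes, Psmd14, the extremes of each group, Psmb11, Psmd13 and Mtf2, and in the pathway list for genes past the threshold, Nfe2l1, Pomp and the immunoproteasome. Psma7, Psma6, Psmc5, Psmd4, Psmd9, Psmd10, the subunits given by 1 value or by groups that do not overlap, Nfe2l2, Ngly1, Psmg4 and Nploc4 were added after their values were seen. The 10 pathway genes without a probe set of their own were not analysed here. The titles number the samples of each group 1 to 3. Deviations from group means correlated at 0.25 to 0.397 for equal numbers and -0.382 to -0.001 for unequal ones. The deviations within a group cancel out, so positive values for equal numbers pull the others down. The negative range is therefore no separate ground. On the values for equal numbers, from the data alone, equal numbers may be pairs. The main fit did not pair them, and pairing entered only through the replicate block and the differences by replicate number. Alternatives were quantile normalization, median centring, other pseudocounts, filters and probe set rules, other eBayes settings, the replicate block, array weights and each array left out.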

Additional observations from a re-analysis of the deposited data

How the results depend on the processing

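The count of core genes that were higher was 1 under the 13 alternatives with all arrays and 1 to 2 with 1 array left out (2, with Psma6, without control replicate 2). The count of regulatory particle genes that were higher was 0, and 1 with the replicate block (Psmd5). The counts of lower genes stayed at 0 by limma in both particles. The block changed no other call among the members, and among the pathway genes it added those of Psmb9, Psmg4, Nfe2l2, Ngly1 and Nploc4. Psmg4 also passed with array weights (adjusted p = 0.0443) and Ngly1 under quantile normalization (adjusted p = 0.0497). Over all genes it called 3113 against 1652 without it. The median of all genes moved by less than 0.1 under each scaling. Medians ranged from 0.083 to 0.163 for the core and from 0.113 to 0.186 for the regulatory particle with all arrays, and from 0.099 to 0.229 and from 0.041 to 0.227 with 1 array left out. The knockdown of Mtf2 ranged from -0.839 to -0.628 with 1 array left out and from -0.803 to -0.530 with all arrays, the smallest with the mean of probe sets. Of 659 member values under an alternative, 33 changed sign, none of them past the threshold. With all arrays these were Psma1 under quantile normalization (-0.034) and median centring (-0.045), and Psmd8 under median centring (-0.021). Psmb7 (-0.080), Psmd11 (-0.034) and Psmd9 (0.047) changed sign under quantile normalization, and Psmd9 with the mean of probe sets (0.051) and array weights (0.117). Psmd11 (-0.022) and Psmd13 (-0.265) did so without probe sets whose names end in _s_at, _x_at, _a_at or _f_at, where a dimmer probe set stood for the gene. That setting went by the ending alone and tested 13 core and 16 regulatory particle genes. It left out the _a_at probe sets that stood for 12 members, among them the main one of Psmd13, so the Psmd13 value is no reading of cross-hybridisation. With 1 array left out the ranges were -0.099 to 0.085 for Psma1, -0.179 to 0.044 for Psmb2, -0.038 to 0.327 for Psmb5, -0.023 to 0.204 for Psmb7, -0.158 to 0.051 for Psmc1, -0.061 to 0.211 for Psmc3, -0.038 to 0.311 for Psmc4, -0.075 to 0.425 for Psmc5, -0.174 to 0.106 for Psmd2, -0.028 to 0.226 for Psmd4, -0.077 to 0.228 for Psmd6, -0.013 to 0.102 for Psmd8, -0.012 to 0.222 for Psmd14, -0.220 to 0.120 for Psmd9 and -0.389 to 0.124 for Nfe2l1. Apart from the left-out array or probe set, the cause was not tested. Signals below background limit Psmb8 in the shRNA arrays to a bound and leave Psmb11 without a test.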
